A study of Arabidopsis thaliana with 16 samples.

Results

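In 14-day-old Arabidopsis thaliana seedlings, 71 genes had more transcript in all 7 histone deacetylase complex mutants than in the wild type Col-0. They were chosen from the deposited normalised read counts. The Col-0 mean had to be at least 50, each of the 7 mutant means at least 1.33 times the Col-0 mean, and all 14 mutant libraries above both Col-0 libraries. The table held 32548 genes, of which 16742 reached the Col-0 minimum, so the 71 made up 0.424% of the genes that could qualify. The rule left out 1 light-harvesting gene that also met these conditions. By the mirrored rule, 88 genes were lower in all 7 mutants.

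Histone deacetylases of the RPD3 type remove acetyl groups from histone tails, which is associated with repressed transcription. They act in multi-subunit complexes whose other members include SANT, ARID and methyl-CpG-binding domain proteins. Loss of a subunit can therefore raise transcripts of genes that the complex acts on, directly or through other regulators. Several of the genes described here belong to the shade avoidance response, in which phytochrome-interacting factors switch on homeodomain-leucine zipper regulators and auxin genes that drive elongation.

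The mutants were hda6 and hda19, each mutated in the deacetylase gene of that name, and sant1234 (sant1, sant2, sant3 and sant4). The others were mbd124 (mbd1, mbd2 and mbd4), esant12 (esant1 and esant2), arid14 (arid1 and arid4) and rxt3, all given as homozygous. Seedlings were kept on Murashige and Skoog medium in long days (a light phase of 16 h at 23 °C, then 8 h of darkness at 22 °C), and total RNA was sequenced as single-end reads of 50 bp. There were 16 libraries, 2 from each genotype, and the allele, the background of the mutants and the pooling of plants are not given in the sources used here. The p-values below measure only the spread between these libraries, which may be technical.

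The whole reads recovered from the deposited values came to 19259579 to 19522197 per library. HDA19 was at 2088 and 2222 normalised reads in Col-0 and at 0.994 and 4.87 in hda19. In mbd124, MBD1, MBD2 and MBD4 had 0.005, 0.376 and 0.062 times their Col-0 means, and ARID1 had 0.497 times in arid14. HDA6 was not reduced in hda6, at 519 and 450 against 430 and 425 in Col-0, so its transcript does not check that label. The other mutated genes could not be matched by name and were not checked. Summed leaf markers (4 genes) lay between 411764 and 505850 in every library and root markers (7 genes) between 1811 and 2282. Flower markers (5 genes) summed to 51.7 to 149. The sums were 55.7 and 53.0 in Col-0, and 51.7 to 72.1 in mbd124 and esant12. They were 73.9 to 114 in hda6 and sant1234, and 100 to 149 in arid14, hda19 and rxt3. Seed markers (4 genes) summed to 0.738 to 186 and were highest in rxt3 replicate 1, at 186 against 7.64 in replicate 2. In RNA of whole seedlings, fewer cells of a type and less RNA per cell cannot be told apart.

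The increases over Col-0 were mostly modest, and since they chose the genes they are given without a test. For each gene, the smallest of its 7 mutant-to-Col-0 ratios ran from 1.33 to 2.48, with a median of 1.44. It was at least 1.5 in 26 genes and at least 2 in 1 gene, AT1G69890. In 15 genes every mutant stayed under 2 times Col-0. The largest ratio of any gene was 7.33, for IAA29 in arid14. Median ratios over the 71 genes were 1.73 in hda6, 1.75 in hda19, 1.67 in sant1234, 1.61 in mbd124, 1.70 in esant12, 2.01 in arid14 and 1.84 in rxt3. Over all genes at the Col-0 minimum these medians lay between 0.97 and 1.0. Col-0 means of the 71 genes ran from 51.8 to 8247, with a median of 395. These counts are not divided by transcript length, so levels of different genes are not compared.

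**Figure D1:**
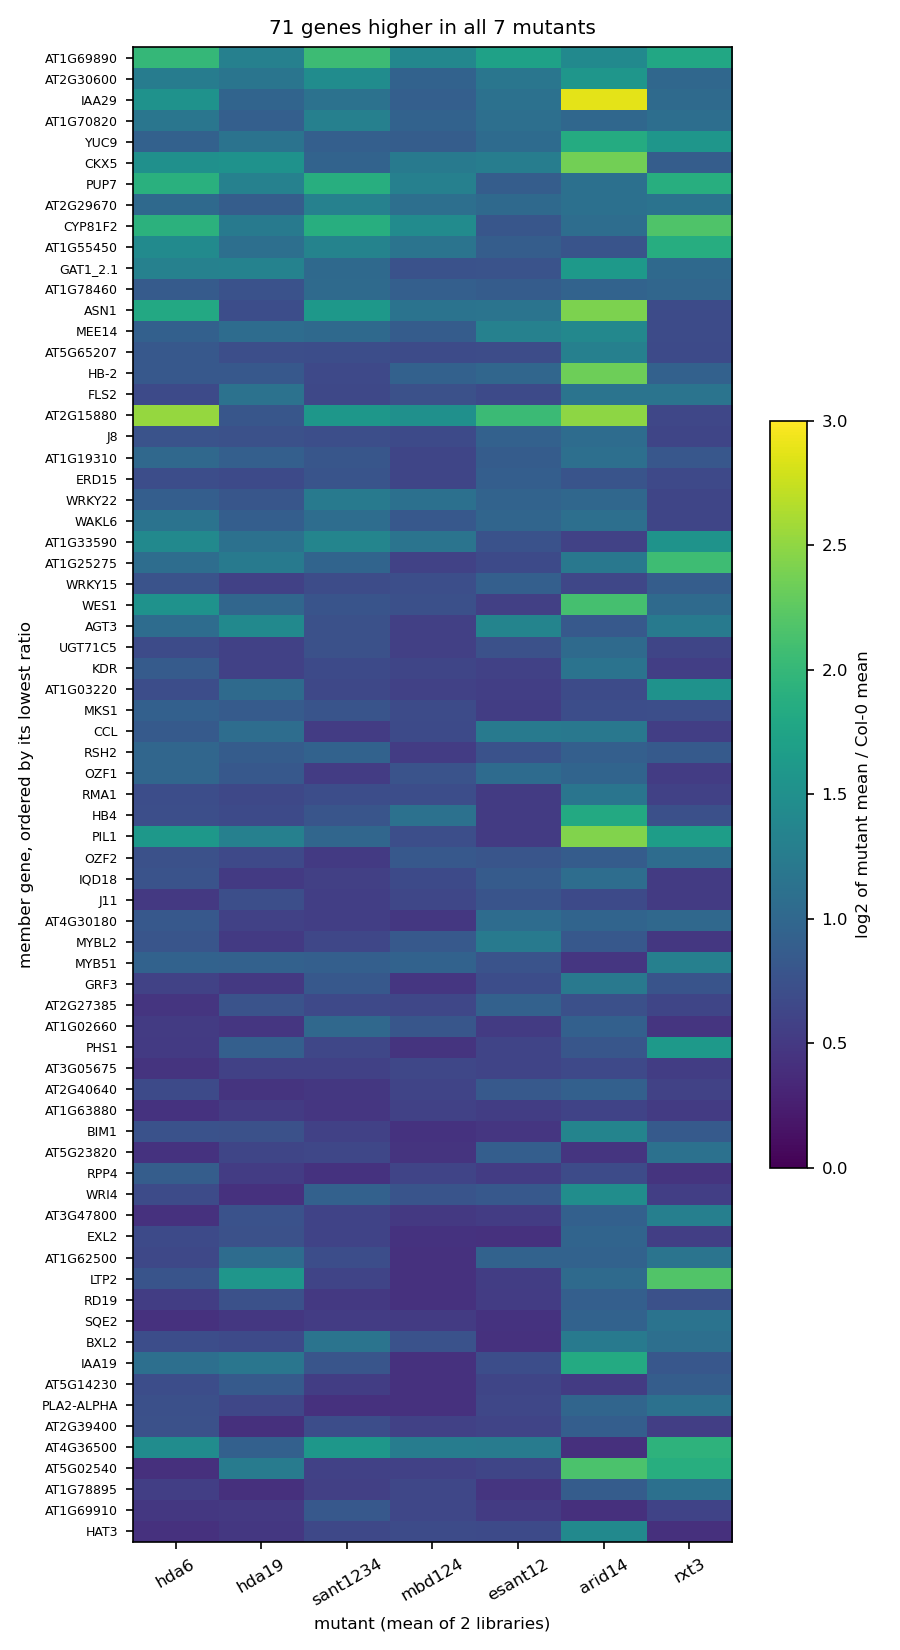
Each row is 1 of the 71 genes, ordered from the largest to the smallest of their lowest ratios, and each column is a mutant (mean of 2 libraries). Colour gives log2 of the mutant mean over the Col-0 mean. The brightest cell is IAA29 in arid14 (a ratio of 7.33), and bright cells sit mainly in the arid14 and rxt3 columns.

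The heat map of ratios shows that the mutants did not share an order: arid14 held the highest mean for 31 genes, rxt3 for 18, esant12 for 8, sant1234 for 7, hda6 for 6 and hda19 for 1. The mbd124 mean was the highest for 0 genes and the lowest for 19. The lowest mean fell in rxt3 for 12 genes, in hda19 and esant12 for 10 each, in hda6 for 8, in sant1234 for 7 and in arid14 for 5.

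All 7 ratios of a gene share the same 2 Col-0 libraries. Of the 71 genes, 52 were lower in Col-0 replicate 1 than in replicate 2. The 2 Col-0 libraries differed by a median of 1.13 times, and by more than 1.33 times in 7 genes, at most 1.76 times (HB4). Applied without Col-0 replicate 1 the rule gave 89 genes, 51 of them among the 71. Without Col-0 replicate 2 it gave 117, of which 60 were among the 71.

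In a limma fit of log2 values over 20846 genes, with calls at an adjusted p (Benjamini-Hochberg) under 0.05, 59 of the 71 were called higher than Col-0 in all 7 mutants and 8 more in 6 of 7. By mutant the calls numbered 70 in hda6 (11.2% of all genes tested were called higher there), 69 in hda19 (14%) and 68 in sant1234 (8.53%). They numbered 62 in mbd124 (4.73%), 68 in esant12 (11.5%), 71 in arid14 (15.1%) and 71 in rxt3 (22.3%). These counts restate the rule and are not a test of it. Over all genes tested, 176 (0.844%) were called higher in all 7, and 33.5% of those were among the 71, while 404 genes were called lower in all 7.

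The gene with the largest lowest ratio was AT1G69890, annotated as an actin cross-linking protein of the DUF569 family. Its normalised counts were 89.5 and 108 in Col-0, 362 and 424 in hda6, 222 and 268 in hda19, 416 and 405 in sant1234, 283 and 231 in mbd124, 338 and 313 in esant12, 231 and 299 in arid14, and 294 and 394 in rxt3. Every mutant library was at 222 or above, and the hda6 and sant1234 pairs were the highest. AT2G30600, which encodes a BTB/POZ domain protein, had 910 and 1036 in Col-0, 2187 and 2483 in hda6, 2193 and 2184 in hda19, 2571 and 2774 in sant1234, 1970 and 1775 in mbd124, 2319 and 2106 in esant12, 2852 and 2965 in arid14, and 1482 and 2419 in rxt3. The arid14 pair was highest, and the rxt3 pair was the most uneven. AT1G70820, a putative phosphoglucomutase, had 368 and 369 in Col-0 and between 668 and 931 in the 14 mutant libraries. AT2G29670, a tetratricopeptide repeat protein, had 810 and 893 in Col-0 and between 1571 and 2154 in the mutants. Neither gene's mutant values overlapped Col-0, as the rule required.

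The genes just inside the ratio threshold were AT1G78895 (a reticulon family gene), AT1G69910 (a protein kinase gene) and HAT3, with lowest ratios of 1.3322, 1.3305 and 1.3303. Just outside were AT1G30730, the light-harvesting gene CAB1 and AT3G45730, which met every other condition and had lowest ratios that rounded to 1.33. The threshold therefore falls inside a run of nearly equal ratios.

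The sequence upstream of the 71 genes was read from the TAIR10.1 genome as the 250 bases before each annotated gene start. A set of 14 short motifs was searched on both strands, with overlapping matches allowed. The full evening element, AAAATATCT, is bound by clock regulators and lies upstream of many genes with rhythmic transcripts. It was not counted apart from its short form AATATCT, which was searched and is called the evening element below. The following 4 windows belong to the genes with the largest lowest ratios among those that hold it and whose window overlaps no other annotated gene. They are printed 5′ to 3′ on the strand of the gene, and capitals mark the element or its reverse complement.
AT2G30600 (chr2:13036564-13036813, plus strand): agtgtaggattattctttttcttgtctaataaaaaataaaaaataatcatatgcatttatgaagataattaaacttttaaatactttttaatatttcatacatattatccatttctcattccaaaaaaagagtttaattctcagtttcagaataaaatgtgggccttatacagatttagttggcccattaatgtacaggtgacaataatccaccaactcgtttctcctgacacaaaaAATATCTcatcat
AT1G78460 (chr1:29519324-29519573, minus strand): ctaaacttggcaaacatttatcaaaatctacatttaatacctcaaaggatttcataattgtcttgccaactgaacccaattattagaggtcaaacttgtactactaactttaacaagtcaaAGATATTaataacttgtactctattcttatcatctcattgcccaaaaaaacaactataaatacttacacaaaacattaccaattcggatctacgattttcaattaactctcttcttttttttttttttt
MEE14 (chr2:6922162-6922411, minus strand): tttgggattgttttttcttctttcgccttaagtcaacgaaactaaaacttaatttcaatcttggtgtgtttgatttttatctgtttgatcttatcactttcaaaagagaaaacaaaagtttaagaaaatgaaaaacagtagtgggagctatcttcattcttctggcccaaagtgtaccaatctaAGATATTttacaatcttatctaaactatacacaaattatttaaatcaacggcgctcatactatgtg
AT5G65207 (chr5:26052718-26052967, minus strand): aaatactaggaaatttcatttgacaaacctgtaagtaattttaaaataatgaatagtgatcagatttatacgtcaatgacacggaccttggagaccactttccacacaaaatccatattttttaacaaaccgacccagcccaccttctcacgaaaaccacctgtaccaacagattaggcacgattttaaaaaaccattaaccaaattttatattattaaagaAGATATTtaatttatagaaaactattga

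The element began 13, 129, 66 and 28 bases before the annotated start in these 4 genes. In all, 17 of the 71 windows held it (23.9%), against 10% of the genes at the Col-0 minimum and 9.8% of all 32548 genes. Of the 17, AT1G70820, MYBL2 and RPP4 held 2 copies each. The others included ERD15, CCL, OZF2, PHS1, LTP2 and RMA1. In windows of 500 bases, a length added after the data were seen, the shares of the evening element were closer, at 26.8% and 18.1%.

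The other motifs were compared in the same 250-base windows. GATAAG, the GATA or I-box motif of many light-regulated genes, was found upstream of 17 genes (23.9%, against 12.5% of genes at the Col-0 minimum). TTGACT, a form of the W-box bound by WRKY factors, was upstream of 21 (29.6% against 18.4%). The other W-box form, TTGACC, was upstream of 11 (15.5% against 11.9%). The G-box CACGTG, bound by phytochrome-interacting factors, was upstream of 9 (12.7% against 7.6%). AAAATCT, a short form of the CCA1 binding site, was at 21.1% against 15.9%, and the auxin response element TGTCTC at 14.1% against 10.5%. The site II motif TGGGCC, found near genes of ribosome and mitochondrial proteins, was upstream of 6 genes (8.5% against 17.4%). The telo-box AAACCCT was upstream of 1 (1.4% against 6.2%) and the GCC-box GCCGCC of 0 (against 1.9%). The dehydration-responsive core CCGAC was at 9.9% against 13.1%, and TATAAA at 45.1% against 45.9%. GAANNTT, a short form of the heat shock element, was at 59.2% against 63.6%. CGCGTT, the rapid stress response element, was at 2.8% against 2.7%. In the 500-base windows, TTGACT was upstream of 46.5% against 30.9% and GATAAG upstream of 33.8% against 22.7%, gaps wider than that of the evening element at that length. The order of CCGAC and of TATAAA turned there, to 26.8% against 23.1% and 69.0% against 66.2%. A match describes the letters and is not evidence of binding.

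**Figure D2:**
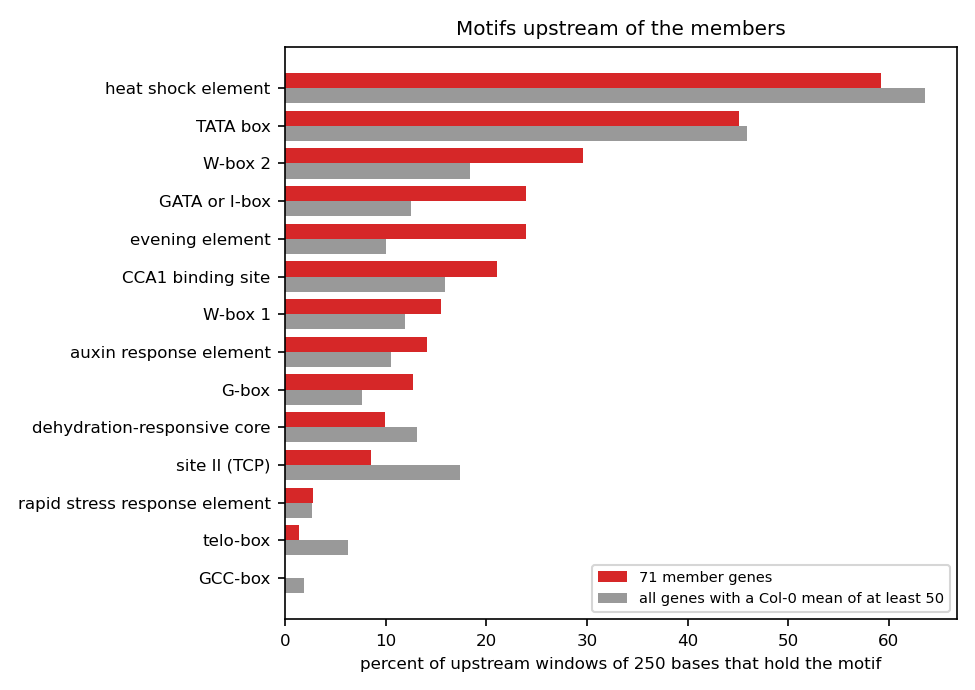
Bars give the percent of 250-base upstream windows that hold each motif, for the 71 genes (red) and for all 16742 genes with a Col-0 mean of at least 50 (grey). W-box 1 is TTGACC and W-box 2 is TTGACT. The evening element stands at 23.9% in red and 10% in grey, and site II at 8.5% and 17.4%.

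All 71 genes were annotated as protein coding. Their median longest transcript was 1622 bp, against 1789 bp for genes at the Col-0 minimum, and their median exon number 3 against 5. Single-exon genes made up 18.3% of them against 11.2%. Chromosomes 1 to 5 held 25, 17, 9, 12 and 8 of the genes, which is 35.2%, 23.9%, 12.7%, 16.9% and 11.3%. The corresponding shares of all genes at the minimum were 26.2%, 15.2%, 20%, 15.2% and 23.4%. Only AT2G15880 and MEE14 were direct neighbours, 49 bp apart on the minus strand of chromosome 2. AT1G69890 and AT1G69910 had 1 protein-coding gene between them, as did BXL2 and AT1G02660. In the annotation, 18 of the 71 genes overlapped another gene, among them AT2G30600, ASN1, CKX5, FLS2, PHS1, PUP7 and GAT1_2.1. The share of overlapping genes at the Col-0 minimum was not computed, so this count has no background beside it. Whether counting used strand is not stated, so reads of overlapping genes on opposite strands may not be separated.

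The rule compared each mutant with Col-0 and not the mutants with each other, and differences between mutants were tested in the fit over all genes. The rule's floor on every mutant value limits how low a mutant of a chosen gene can lie, so the shares of the 71 genes below are not independent of the choice and are set beside those of other genes as a description. An F test across the 7 mutants called 63 of the 71 genes (88.7%), against 68.3% of all genes tested and 72.4% of those at the Col-0 minimum. Each mutant was then compared with the mean of the other 6 mutants in the same limma fit. In arid14, 34 of the 71 genes were higher and 7 lower, where 12.6% of all genes tested were called higher and 13.3% lower (14.5% and 14.5% of genes at the Col-0 minimum). The median difference of the 71 genes was 0.25 on the log2 scale, against 0.01 over all genes. The arid14 count of higher genes was 28 without arid14 replicate 1 and 21 without arid14 replicate 2.

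The rxt3 mutant had 22 of the 71 genes higher and 13 lower than the other 6, where 23.7% of all genes were called higher and 26.6% lower (24.3% and 29.6% at the Col-0 minimum). Its 22 genes are 31.0% of the 71, near the background. Its 13 lower genes became 6 without rxt3 replicate 1. In mbd124, 0 of the 71 were higher and 19 lower in limma, where 6.97% of all genes were called higher and 4.14% lower (8.43% and 4.12% at the Col-0 minimum). None of the 71 was higher in mbd124 at an unadjusted p under 0.05 (0 genes), and edgeR and DESeq2 also called 0. The 19 lower genes became 5 without either mbd124 library, 12 without sant1234 replicate 2 and 12 with no filter on low values. They included IAA29, IAA19, PIL1, WES1, LTP2, PHS1 and RD19. PHS1 kept its mbd124 call without either mbd124 library, and the other 6 lost theirs without at least 1 of them (highest adjusted p = 0.11, 0.23, 0.16, 0.25, 0.14 and 0.31 for IAA29, IAA19, PIL1, WES1, LTP2 and RD19).

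In esant12, 11 genes were higher and 16 lower (16.9% and 17.8% of all genes, 19.6% and 17.8% at the Col-0 minimum). In hda6, 9 were higher and 7 lower (11% and 9.32% of all genes, 10.1% and 10.5% at the minimum). In hda19, 5 were higher and 13 lower (12.1% and 12.9%, or 13.5% and 13.2% at the minimum). In sant1234, 8 were higher and 8 lower (4.01% and 4.2%, or 3.99% and 4.59% at the minimum). Each of these 8 counts fell by more than 1.5 times without 1 of the mutant's own libraries. The sant1234 count of higher genes fell to 0 without either sant1234 library, and its count of lower genes to 0 without replicate 1, 3 without replicate 2, 3 without esant12 replicate 2, and 5 without hda19 replicate 2 or mbd124 replicate 1. The hda6 count of higher genes fell to 1 without replicate 2 and that of lower genes to 2 without replicate 1. The hda19 counts fell to 3 higher and 3 lower without replicate 1, and to 1 and 5 without replicate 2. The esant12 count of higher genes fell to 3 without replicate 1 and to 6 without replicate 2, where that of lower genes was 10.

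**Figure D3:**
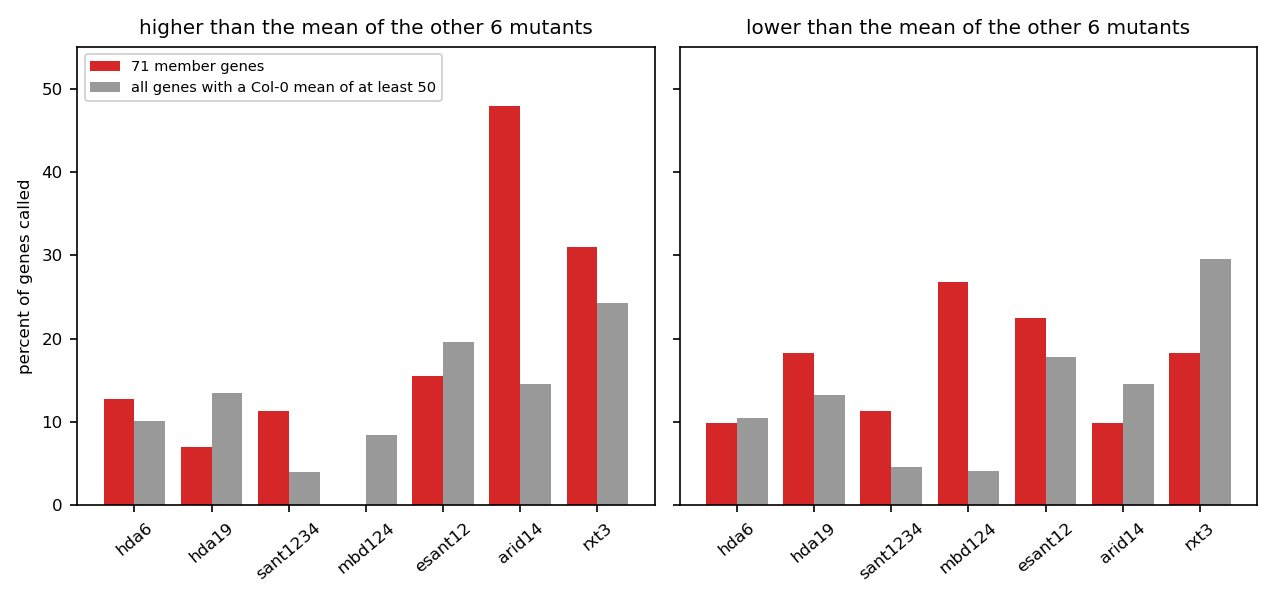
Bars give the percent of genes called higher (left) or lower (right) in each mutant than in the mean of the other 6, at a limma adjusted p under 0.05, for the 71 genes (red) and all genes with a Col-0 mean of at least 50 (grey). The arid14 bars on the left stand at 47.9% and 14.5%, and the mbd124 bars on the right at 26.8% and 4.12%.

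In the bars of calls between mutants, the largest gap between the 71 genes and the background was in arid14 on the higher side. Of the 34 genes behind it, 11 belong to shade and auxin growth control, a group made after their values were seen. They were the shade-induced homeodomain-leucine zipper genes HB-2, HB4 and HAT3, and the helix-loop-helix genes PIL1, KDR and BIM1. The others were the auxin genes IAA19, IAA29, WES1 and YUC9, and CKX5, which breaks down cytokinin. Of these 11 genes, all 11 had their highest mean in arid14. All 11 were called higher there than in the other 6 mutants, as were 12.6% of all genes tested. The 11 genes had a median ratio to Col-0 of 3.6 in arid14 and between 1.60 and 1.96 in the other 6 mutants. They were named from among the 34 called genes with values seen. The arid14 counts and median of the group follow from that choice and are not a test. The group count stayed at 11 under every alternative except without arid14 replicate 2, where it was 10 and KDR was not called.

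IAA29 encodes an Aux/IAA repressor of auxin signalling that is itself induced by auxin and shade. Its counts were 139 and 176 in Col-0, 430 and 478 in hda6, 305 and 312 in hda19, 315 and 375 in sant1234, 295 and 298 in mbd124, 289 and 398 in esant12, 1031 and 1279 in arid14, and 343 and 307 in rxt3. Both arid14 libraries were far above every other library. The hda6 pair came next, and the libraries of the remaining mutants lay between 289 and 398. The arid14 difference from the other 6 mutants was 1.75 ± 0.12 (SE, log2), with a limma adjusted p of 2.9e-07. HB-2, a homeodomain-leucine zipper factor that responds to the ratio of red to far-red light, had 807 and 1077 in Col-0, 1515 and 1837 in hda6, 1681 and 1682 in hda19, 1355 and 1631 in sant1234, 1768 and 1805 in mbd124, 1793 and 1952 in esant12, 3737 and 5790 in arid14, and 1909 and 1669 in rxt3. The arid14 libraries stood apart from all others but also from each other. The difference was 1.44 ± 0.13 (SE, log2; limma adjusted p = 3.5e-06).

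PIL1, a helix-loop-helix gene induced early in shade, had 70.6 and 79.9 in Col-0, 197 and 260 in hda6, 199 and 172 in hda19, 116 and 183 in sant1234, 124 and 125 in mbd124, 97.5 and 118 in esant12, 324 and 486 in arid14, and 262 and 218 in rxt3. It was high in arid14 and lowest in esant12. Its differences from the other 6 mutants were 1.27 ± 0.17 in arid14 and -0.92 ± 0.17 in esant12 (SE, log2; limma adjusted p = 9.5e-05 and 0.00085). WES1, a GH3 enzyme that conjugates auxin to amino acids, had 609 and 742 in Col-0 and 2394 and 3460 in arid14, while the other mutants lay between 970 and 2122. It was higher in arid14 by 1.15 ± 0.11 and in hda6 by 0.49 ± 0.11 (SE, log2; limma adjusted p = 4.6e-06 and 0.006), the latter call being lost without hda6 replicate 2 (adjusted p = 0.13). Its esant12 difference was -0.63 ± 0.11 (adjusted p = 0.00058). YUC9, an enzyme of auxin synthesis, had 73.6 and 78.9 in Col-0, 267 and 283 in arid14 and 251 and 204 in rxt3, and between 128 and 181 in the other 5 mutants. It was called higher in arid14 (0.77 ± 0.11, SE, log2; adjusted p = 0.00018) and in rxt3 (0.44 ± 0.11; adjusted p = 0.0041, limma). Its rxt3 call was lost without rxt3 replicate 1 (adjusted p = 0.13). It was the only gene of the 11 called higher in rxt3, where CKX5, IAA29 and HAT3 were called lower. Those 3 calls were also lost without 1 rxt3 library (adjusted p = 0.10, 0.16 and 0.14).

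HB4 and HAT3 differed from the other 6 mutants in arid14 by 1.03 ± 0.16 and 0.87 ± 0.09, and CKX5 by 1.11 ± 0.16 (SE, log2). IAA19, BIM1 and KDR differed by 0.96 ± 0.15, 0.70 ± 0.08 and 0.48 ± 0.12. Without arid14 replicate 2 the difference was 0.60 for IAA19 and 0.29 for KDR. In several of these genes arid14 replicate 2 was well above replicate 1, as for IAA19 (737 and 1210) and HB4 (216 and 317). Of the 11 upstream windows, 0 held the evening element, 1 held the G-box and 4 held TGTCTC.

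**Figure D4:**
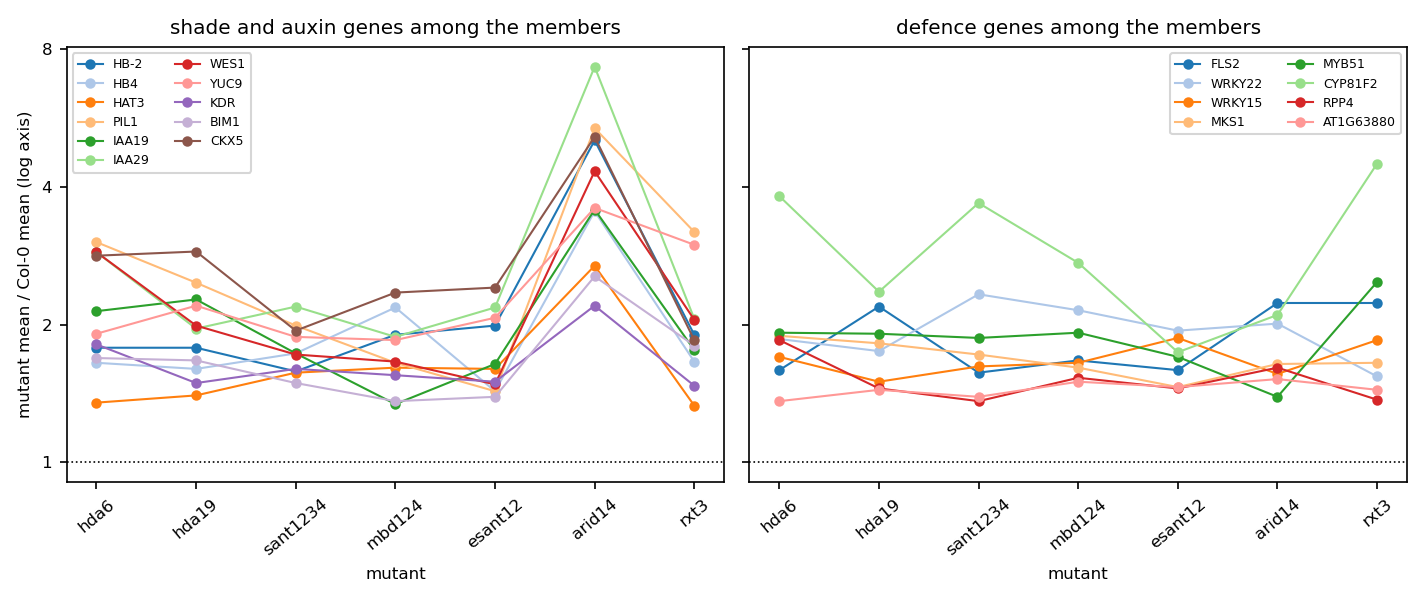
Points give the mutant mean over the Col-0 mean (log axis, n = 2 libraries each) for 11 shade and auxin genes (left) and 8 defence genes (right), joined by a line for each gene. The dotted line marks the Col-0 level. All 11 lines on the left peak at arid14, since these genes were named from among those called higher there. The genes on the right were not chosen in that way, and their lines do not share a peak.

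A wider list of 15 auxin response genes held IAA19, IAA29 and WES1. Of the 12 that were not chosen by the rule, 7 were called higher than Col-0 in arid14, where 15.1% of all genes were. In each of the other mutants 1 to 4 of the 12 were called higher, where 4.73% to 22.3% of all genes were. Called lower were 3 of the 12 in hda6, 2 in hda19, 1 in esant12 and 2 in rxt3. In arid14, sant1234 and mbd124 0 were called lower. Of all genes tested, 5.27% to 24.9% were called lower in a mutant. The list's median difference from Col-0, members included, was 0.63 in arid14 and between 0.00 and 0.38 in the others on the log2 scale.

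In the plot of ratios by mutant, the 8 genes of defence, a group also made after their values were seen, did not share a peak. Unlike the shade and auxin genes, they were not drawn from the genes called higher in arid14. The difference between the groups at arid14 therefore follows from how they were chosen. The defence group held FLS2, the receptor of bacterial flagellin, and the transcription factors WRKY22, WRKY15 and MYB51. The others were MKS1, a substrate of a defence MAP kinase, CYP81F2, which modifies indole glucosinolates, and RPP4 and AT1G63880, of the TIR-NBS-LRR resistance genes. Against the other 6 mutants, 4 of the 8 were called higher in rxt3 and 1 lower, and 1 higher and 2 lower in arid14. Of all genes, 23.7% were called higher and 26.6% lower in rxt3, and 12.6% and 13.3% in arid14. Such small counts of a group chosen after its values were seen are a description. A list of 14 salicylic acid and defence genes, none of them among the 71, was compared with Col-0. Of the 14, 7 were called lower in sant1234 and 6 in esant12, where 11.3% and 14.3% of all genes were, while 5 were called higher in rxt3 and 4 in hda19 (22.3% and 14% of all genes). The list's median difference from Col-0 ran from -0.51 in sant1234 to 0.43 in rxt3 on the log2 scale. RPP4 and AT1G63880 have close copies, and with 50 bp reads their counts are uncertain.

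CYP81F2 had 99.4 and 89.9 in Col-0, 330 and 392 in hda6, 178 and 269 in hda19, 347 and 352 in sant1234, 264 and 253 in mbd124, 164 and 166 in esant12, 191 and 206 in arid14, and 423 and 429 in rxt3. It was highest in rxt3 and lowest in esant12. The differences from the other 6 mutants were 0.78 ± 0.11 in rxt3, -0.82 ± 0.11 in esant12 and -0.50 ± 0.11 in arid14 (SE, log2; limma adjusted p = 6.7e-05, 0.0001 and 0.0045). The arid14 call was lost without arid14 replicate 1 (adjusted p = 0.069). MYB51, a regulator of indole glucosinolate synthesis, differed by 0.49 ± 0.10 in rxt3 and -0.49 ± 0.10 in arid14 (adjusted p = 0.0011 and 0.0027). FLS2 had 450 and 468 in Col-0 and was called higher in hda19, arid14 and rxt3 (0.30, 0.32 and 0.32 on the log2 scale, each SE 0.08), where all 6 libraries were between 933 and 1111. In the other 4 mutants it lay between 656 and 829. These calls were lost without arid14 replicate 1 (a difference of 0.19), rxt3 replicate 1 (a difference of 0.27) and either hda19 library (differences of 0.25 and 0.34).

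In arid14, 7 of the 71 genes were lower than in the other 6 mutants, and all 7 were called higher in rxt3 than in its other 6. The contrasts share libraries, and each mutant is in the comparison mean of the other, so these calls are not independent. Of all genes tested, 23.7% were called higher in rxt3 (24.3% at the Col-0 minimum). The share of genes lower in arid14 that were also higher in rxt3 was not computed over all genes. No background therefore stands beside this overlap. AT4G36500, an uncharacterised protein, had 379 and 411 in Col-0, 1003 and 1169 in hda6, 647 and 849 in hda19, 1191 and 1187 in sant1234, 932 and 954 in mbd124, 928 and 945 in esant12, 497 and 556 in arid14, and 1530 and 1508 in rxt3. Its arid14 pair was the lowest of all mutants and its rxt3 pair the highest. The differences were -0.99 ± 0.08 in arid14 and 0.80 ± 0.08 in rxt3 (SE, log2; limma adjusted p = 1.2e-06 and 2.7e-06). AT1G33590, a leucine-rich repeat protein, differed by -0.63 in arid14 and 0.47 in rxt3. AT1G55450, a methyltransferase family protein, differed by -0.51 and 0.75. PUP7, a purine permease family member, differed by -0.41 and 0.47, and its arid14 call was lost without arid14 replicate 2 (adjusted p = 0.073). CYP81F2 and MYB51, described above, and AT5G23820 were the others, and AT5G23820 lost its arid14 call without either arid14 library (adjusted p = 0.14 and 0.11).

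A list of 17 wound and touch response genes, none of them among the 71, was also split when compared with Col-0. Of the 17, 10 to 13 were called higher in each of the 6 other mutants, where 4.73% to 22.3% of all genes were. In arid14 1 was called higher and 9 lower, where 15.1% of all genes were called higher and 17.2% lower. Of all genes tested, those called lower than Col-0 made up 17.2% in arid14, 12.5% in hda6, 16.2% in hda19, 11.3% in sant1234, 5.27% in mbd124, 14.3% in esant12 and 24.9% in rxt3. The median difference of that list was -0.85 in arid14 and 0.66 to 1.03 elsewhere on the log2 scale.

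The genes with the largest rxt3 differences included LTP2 and PHS1. LTP2, a lipid transfer protein of the epidermis, had 437 and 401 in Col-0, 782 and 654 in hda6, 1173 and 1310 in hda19, 586 and 697 in sant1234, 639 and 486 in mbd124, 530 and 694 in esant12, 923 and 791 in arid14, and 2259 and 1551 in rxt3. Both rxt3 libraries were above all others, and the hda19 pair came next. Its difference in rxt3 was 1.34 ± 0.14 (SE, log2; limma adjusted p = 3.2e-06), and in hda19 0.65 ± 0.14 (adjusted p = 0.0035), the hda19 call being lost without hda19 replicate 2 (adjusted p = 0.072). PHS1, the plastid starch phosphorylase, had 1128 and 994 in Col-0, 3502 and 2964 in rxt3, and between 1437 and 2038 in the other mutants. It was 0.95 ± 0.06 higher in rxt3 (adjusted p = 4.1e-08). AT1G25275, a thionin-like gene, was 1.11 ± 0.06 higher (adjusted p = 2.9e-08) and AT1G03220, an aspartyl protease family gene, 0.82 ± 0.08 higher (adjusted p = 2.6e-06). AT5G02540, an NAD(P)-binding protein, was higher in both rxt3 (0.95 ± 0.16) and arid14 (1.19 ± 0.16), with 635 and 782 in rxt3, 592 and 1113 in arid14, and 202 and 183 in Col-0. Its arid14 difference was 0.74 without arid14 replicate 2.

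**Figure D5:**
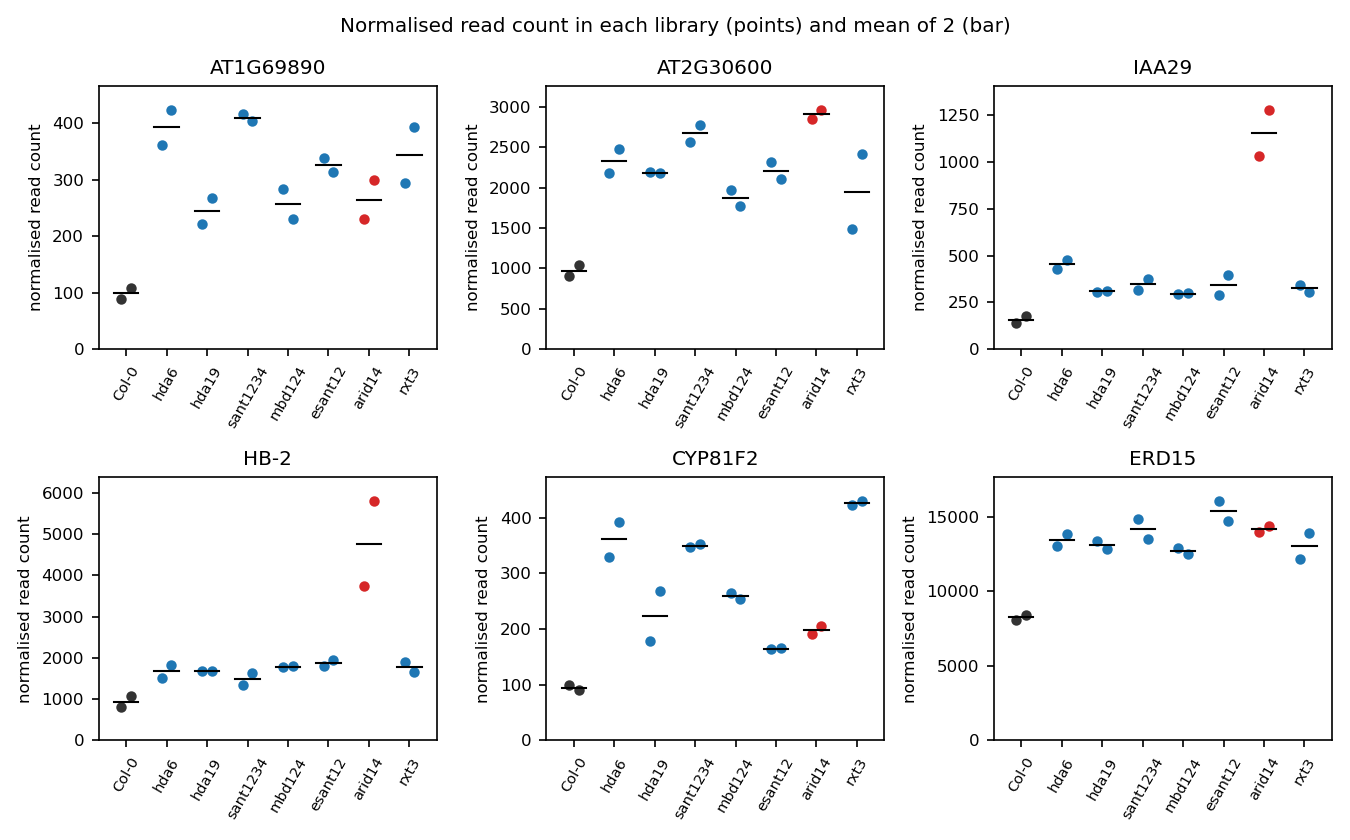
Normalised read counts of 6 of the 71 genes, with 1 point for each library and a bar at the mean of the 2, for Col-0 (black), arid14 (red) and the other mutants (blue). Each axis starts at 0. IAA29 and HB-2 are highest in arid14, CYP81F2 is highest in rxt3, and ERD15 has every mutant between 12176 and 16029.

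The library plots show the range from genes led by arid14 to the even ERD15. ASN1 and AT2G15880 had another order, highest in arid14 and hda6 and lowest in rxt3 and hda19. ASN1, the asparagine synthetase induced in the dark and by low sugar, had 3697 and 4356 in Col-0, 13539 and 14712 in hda6, 6591 and 6604 in hda19, 11705 and 12688 in sant1234, 7776 and 9984 in mbd124, 9373 and 8487 in esant12, 19456 and 23379 in arid14, and 4593 and 8381 in rxt3. The lower rxt3 library was close to the higher Col-0 library. ASN1 differed by 1.23 ± 0.15 in arid14, 0.54 ± 0.15 in hda6, -0.84 ± 0.15 in rxt3 and -0.74 ± 0.15 in hda19 (SE, log2; limma adjusted p = 4.8e-05, 0.021, 0.00039 and 0.003). The hda6 call was lost without either hda6 library (adjusted p = 0.095 and 0.17). The rxt3 difference was -0.41 without rxt3 replicate 1 and -1.28 without rxt3 replicate 2. GAT1_2.1, a glutamine amidotransferase family gene, was higher in arid14 alone (0.60 ± 0.17, adjusted p = 0.018), a call lost without either arid14 library (adjusted p = 0.13 and 0.11). In a list of 14 dark and sugar starvation genes, 5 to 9 of the 13 other than ASN1 were called higher than Col-0 in each mutant, where 4.73% to 22.3% of all genes were. At most 2 of the 13 were called lower, where 5.27% to 24.9% of all genes were, and 1 was called higher in all 7.

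AT2G15880, a leucine-rich repeat gene, and its neighbour MEE14 differed in how far they moved. AT2G15880 had 60.6 and 67.9 in Col-0, 375 and 365 in hda6, 97.6 and 128 in hda19, 205 and 180 in sant1234, 153 and 213 in mbd124, 272 and 256 in esant12, 387 and 335 in arid14, and 78.5 and 122 in rxt3. It was highest in hda6 and arid14 (1.02 ± 0.15 and 0.98 ± 0.15) and lowest in rxt3 and hda19 (-1.21 ± 0.15 and -0.98 ± 0.15; SE, log2; limma adjusted p = 0.00031, 0.00031, 1.9e-05 and 0.00038). MEE14, named for arrest of embryos with a mutant mother, had 409 and 552 in Col-0, 826 and 992 in hda6, 963 and 1043 in hda19, 1004 and 955 in sant1234, 790 and 967 in mbd124, 1196 and 1193 in esant12, 1175 and 1346 in arid14, and 661 and 884 in rxt3. Its mutants spanned 1.63-fold, against 3.70-fold for AT2G15880. MEE14 was lower in rxt3 (-0.42 ± 0.11, limma adjusted p = 0.0068) and higher in arid14 (0.41 ± 0.11, adjusted p = 0.016). These calls were lost without rxt3 replicate 1 (a difference of -0.22) and without arid14 replicate 2 (a difference of 0.32). It was also called higher in esant12 (0.33 ± 0.11, limma adjusted p = 0.039), a call lost in 7 of 24 refits.

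The genes with the narrowest range were at similar levels in every mutant. ERD15 among them was still called in the F test among mutants (limma adjusted p = 0.033). AT1G63880 had 762 and 770 in Col-0 and between 1012 and 1219 in the 14 mutant libraries, with mutant means spanning 1.12-fold. AT3G05675, a BTB/POZ domain gene, had 90.5 and 95.9 and between 124 and 156, and AT1G78460, a SOUL heme-binding gene whose upstream window is printed above, had 455 and 515 and between 812 and 1108. None of these 3 passed the F test among mutants (limma adjusted p = 0.34, 0.67 and 0.28), which does not show that the mutants are equal. ERD15, a small dehydration-induced protein, had 8109 and 8384 in Col-0, and only esant12 was called higher than the other 6 (0.19 ± 0.05, adjusted p = 0.012), a call lost without esant12 replicate 1 (adjusted p = 0.23). J11, a plastid J-domain chaperone, had 3162 and 3545 in Col-0 and between 4497 and 6011 in the mutants. Its esant12 call (0.17 ± 0.06, adjusted p = 0.049) was lost in 14 of 24 refits. They included edgeR (adjusted p = 0.052), no filter on low values (0.082), and leaving out either esant12 library (0.42 and 0.069) or any of several libraries of other mutants (0.058 to 0.072). In all, 6 of the 71 genes were called neither in the F test nor in any mutant against the other 6.

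Among the remaining genes, MYBL2, a repressor of anthocyanin synthesis, was highest in esant12 (0.56 ± 0.09, SE, log2; limma adjusted p = 0.00039). WRI4, an activator of wax synthesis, was highest in arid14 (0.78 ± 0.11, adjusted p = 0.00012), as was GRF3, a growth-regulating factor (0.56 ± 0.09, adjusted p = 0.0004). CCL, a CCR-like gene, was higher in esant12 (0.41 ± 0.07, adjusted p = 0.00052) and arid14 (0.37 ± 0.07, adjusted p = 0.0014). It was lower in sant1234 (-0.39 ± 0.07, adjusted p = 0.0042) and rxt3 (-0.37 ± 0.07, adjusted p = 0.0006). Its arid14 and sant1234 calls were each lost without 1 library of that mutant (adjusted p = 0.051 and 0.13), as were smaller calls in hda19 (0.24) and mbd124 (-0.23). AGT3, an alanine-glyoxylate aminotransferase, was highest in hda19 (0.46 ± 0.08, adjusted p = 0.0014) and lowest in mbd124 (-0.55 ± 0.08, adjusted p = 0.0014).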

How the data were processed

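RNA-seq of 16 seedling libraries was used, 2 for each of 8 genotypes, grouped by title. Per the submitters' processing notes, the authors used HISAT2 2.1.0, featureCounts, edgeR and TAIR10; options and strand setting are not given in the sources used here. The deposited values are a normalised signal per gene: each matched a pseudo-count that edgeR gives for a whole read count (100% within a relative tolerance of 1e-06), so library totals of RNA are scaled away. Totals of the deposited values were 18838164 to 20105682. limma 3.58.1 with a trend (R 4.3.3) was fitted to log2 of the value plus 1, 8 genotypes together, for 20846 genes with at least 10 in at least 2 libraries. edgeR 4.0.16 and DESeq2 1.42.0 on recovered reads, another pseudocount, filters, scaling, a replicate block and leaving out each library were alternatives. Fold changes on this scale understate changes of low genes.

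The 71 genes, gene lists, motifs and tests were chosen with earlier results of these data known, and the groups by role after values were seen. Genes to name were the 15 with the largest lowest ratio, the 10 widest and 5 narrowest in range, list members, neighbours and those beside the threshold; HB4, BIM1, KDR, FLS2, WRKY22, WRKY15, MYB51, MKS1, RPP4, AT1G33590, PHS1, AT1G25275, AT1G03220, MYBL2, WRI4, GRF3, CCL, AGT3 and others outside this rule were chosen after their values were seen. Upstream windows and gene models came from the RefSeq annotation of TAIR10.1, where all 32548 identifiers were found. The expression table holds no coordinates.

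On simulated data for arid14 against the other 6 (20623 genes), calls were made for 3 of 50 genes with a 1.25-fold change and 20 with 1.5-fold. They were made for 48 with 2-fold and 50 with 4-fold, and 16 unchanged genes were also called. The simulated counts had a dispersion of 0.02, where the recovered reads had a common dispersion of 0.0034. These counts therefore do not give the share of real changes of each size that the fit would call.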

Additional observations from a re-analysis of the deposited data

How the results depend on the processing

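The number of genes that met the rule was 192 with a ratio of 1.2 and 26 with a ratio of 1.5, and ran from 61 to 117 when 1 library was left out. The count of the 71 called in the F test among mutants ran from 54 to 64 without 1 library. Leaving out 1 library, genes called against the other 6 ran as follows. In hda6, 1 to 10 were higher and 2 to 8 lower. In hda19, 1 to 6 were higher and 3 to 15 lower. In sant1234, 0 to 12 were higher and 0 to 9 lower. In mbd124, 0 were higher and 5 to 19 lower. In esant12, 3 to 11 were higher and 10 to 19 lower. In arid14, 21 to 35 were higher and 5 to 8 lower. In rxt3, 18 to 23 were higher and 6 to 19 lower. A lone library of a genotype was assumed to vary like the others. The sant1234 count of lower genes, 8, was 5 with a pseudocount of 0.1, 2 with no filter and 5 with DESeq2, and the mbd124 count was 12 with no filter. The cause was not tested.

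Of 172 calls on single genes, 3729 of 4128 refits kept the call, 398 lost it and 1 changed sign: AT2G30600 in rxt3, -0.30 in the full fit and from -0.66 to 0.05 without 1 library (adjusted p = 0.69 without rxt3 replicate 1). Most single-gene losses came without 1 library. Replicate numbers did not pair the libraries: deviations of same-numbered libraries correlated between -0.09 and 0.12 over 28 pairs of genotypes, 3 of them over 0.1. With the replicate block, 64 genes were called in the F test, 34 were higher in arid14 and 18 lower in mbd124, and 1 of the 172 calls was lost.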
